A study of Mus musculus with 2 samples.

Results

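This report describes 10 genes that mark macrophages of the liver, in RNA of hepatocyte preparations from healthy and CCl4-injured mice. The genes were chosen by name and found in the mRNA table through their RefSeq identifiers. 7 of them are identity genes of resident Kupffer cells (Clec4f, Vsig4, Timd4, Cd5l, Marco, Cd163 and Spic), 2 are general macrophage genes (Adgre1 and Csf1r) and 1 marks inflammatory monocytes (Ly6c2). They are 10 of 20317 named genes in the table, and all 10 were at 1 RPKM or more in both libraries, a unit that scales reads to transcript length and library size. The comparison took in the 12012 genes with 1 RPKM or more in either library.

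RNA was sequenced from primary hepatocytes of WT C57BL/6J mice, 1 library from a mouse group given oil and 1 from a group given CCl4, a hepatotoxin that causes fibrosis when given repeatedly. CCl4 was a 20% solution in mineral oil at 2.5 ml/kg, injected intraperitoneally 2 times per week, and the oil group received oil by the same route. The labels give 8 weeks of injection, the methods of the study a shorter course, and neither says how many mice stand behind a library. The study's methods give male mice, cells from pronase and collagenase perfusion with a density gradient, and mention no sort. They also describe a purity check by qRT-PCR of cell type markers, among them Clec4f and Adgre1 (as Emr1). The study does not say whether the sequenced preparations were among those checked. With 1 library per condition there is no replicate check: the intervals below are 95% intervals for counting error only, and no p-value is given. Library totals were inferred from the steps between RPKM values of short genes, and are lower bounds: 57992580 mapped reads for oil and 64655494 for CCl4. The totals behind the deposited new lncRNA counts were larger, 62438205 and 70960848.

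Kupffer cells are the resident macrophages of the liver sinusoids. They clear bacteria, complement-coated particles, aged red cells and dying cells from portal blood. They are seeded before birth and renew themselves in place, and signals from neighbouring stellate, endothelial and parenchymal cells maintain their identity genes. Most macrophages carry the growth factor receptor encoded by Csf1r, and most in mouse tissue carry the surface receptor encoded by Adgre1. Monocytes with much Ly6C protein enter the liver from blood after injury and can become macrophages there, acquiring Kupffer cell genes over different times.

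The resident Kupffer cell genes did not move as a block between the libraries. Marco was 6.58-fold, Spic 2.82-fold and Cd5l 2.14-fold higher after CCl4, whereas Vsig4, Timd4 and Cd163 were 1.49-fold, 1.31-fold and 1.09-fold higher and Clec4f was 1.11-fold lower. Both general macrophage genes were about equally higher, Adgre1 2.38-fold and Csf1r 2.37-fold. Ly6c2 was 1.64-fold lower. By a log2 fold change of 1 or more in size, a rule and not a test, 3 of the 7 resident genes were higher and 0 were lower, and the other 4 lay between. Among all 12012 genes compared, 16.5% were higher by that rule and 5.39% were lower. The median gene measured in both libraries was itself 0.30 higher in log2 after CCl4. Relative to that gene 2 of the 7, Marco and Spic, stayed past the rule, as did 9.39% of all genes. In RNA of whole preparations, fewer cells of a type and less RNA per cell cannot be told apart.

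**Figure D1:**
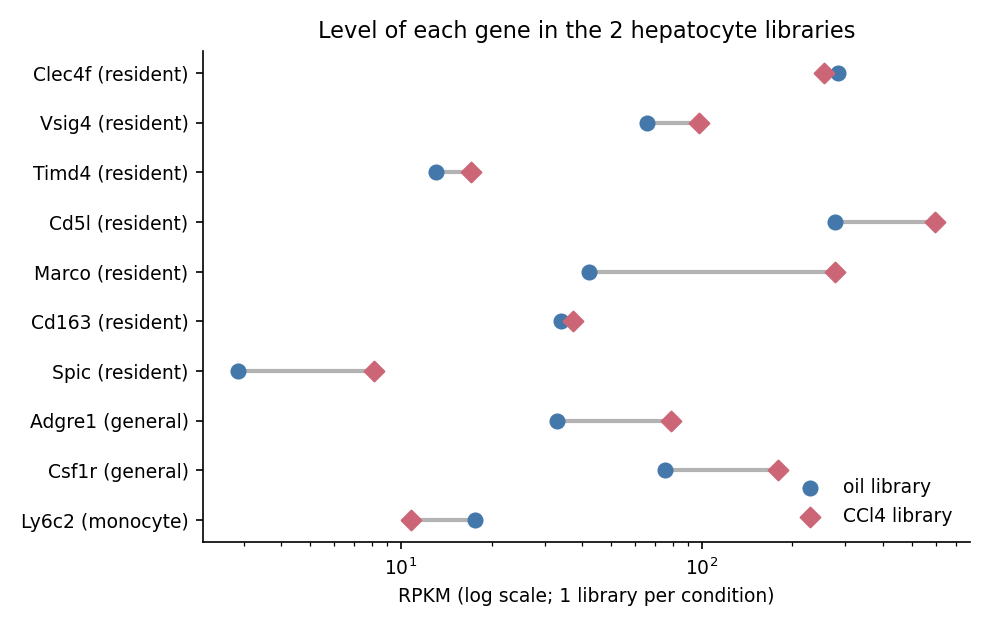
RPKM of the 10 genes on a log axis in the oil library (circles) and the CCl4 library (diamonds), 1 library each, with a line joining the 2 values of a gene. Marco spans the widest gap, 42.3 to 278 RPKM, while the Clec4f and Cd163 markers almost coincide.

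Clec4f encodes a galactose-binding C-type lectin that in mice is made by Kupffer cells and hardly by other macrophages. Its transcript (NM_016751, mm10 chr6:83644542-83656116) was at 283 RPKM in oil and 255 RPKM after CCl4. The log2 fold change was -0.15 (interval -0.20 to -0.10), from at least 6047 and 6073 reads. The direction of this small difference depended on scaling, since it was 0.05 when the RPKM values were scaled without the 10 most abundant mRNAs and -0.45 when they were scaled to the median gene. Of all 20317 genes, it ranked 174 by level in oil and 151 after CCl4.

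Timd4 encodes a phosphatidylserine receptor that binds dying cells, and in the liver it marks long-resident Kupffer cells. Its transcript (NM_178759, chr11:46810786-46844333) was at 13.1 RPKM in oil and 17.1 RPKM after CCl4, a log2 fold change of 0.39 (0.29 to 0.48). Vsig4 encodes the complement receptor CRIg, which captures particles coated with C3 fragments. Its transcript (NM_177789, chrX:96247201-96293438) was at 65.6 RPKM in oil and 97.6 RPKM after CCl4, a log2 fold change of 0.57 (0.52 to 0.63). Relative to the median gene these 2 differences were 0.08 and 0.27 in log2.

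Cd163 encodes the receptor through which macrophages take up haemoglobin bound to haptoglobin. The more abundant of its 2 transcripts in the table (NM_053094, chr6:124304636-124330529) was at 34.1 RPKM in oil and 37.2 RPKM after CCl4. Its log2 fold change was 0.13 (0.03 to 0.23), and became -0.18 relative to the median gene. The other transcript (NM_001170395) gave 33.6 and 36.6 RPKM. By unscaled fold change, Cd163 and Clec4f were the 2 genes of the 10 nearest to no difference. Relative to the median gene, the nearest 2 were instead Timd4 (0.08 in log2) and Cd163.

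Marco encodes a class A scavenger receptor that binds bacteria and particles. Its transcript (NM_010766, chr1:120474538-120505024) went from 42.3 RPKM in oil to 278 RPKM after CCl4, from at least 642 to at least 4707 reads. The log2 fold change of 2.72 (2.60 to 2.84) was the largest of the 10 genes, and Marco moved from rank 1069 to rank 137 among all genes. After CCl4 it was above Clec4f, which it had been far below in oil.

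Cd5l encodes a secreted protein of macrophages, also called AIM, that circulates bound to IgM. Its transcript (NM_009690, chr3:87357881-87371074) was at 278 RPKM in oil and 595 RPKM after CCl4, where it ranked 46 among all genes and was the most abundant of the 10. The log2 fold change was 1.10 (1.05 to 1.15), or 0.80 relative to the median gene, which is no longer past the rule of size. Spic encodes an ETS-family transcription factor that macrophages need for iron recycling from red cells and that heme induces. It was the least abundant of the 10 in oil, with its transcript (NM_011461, chr10:88675269-88683023) at 2.88 RPKM and then 8.12 RPKM after CCl4. The 2.82-fold difference had an interval of 1.27 to 1.73 in log2, from at least 211 and 664 reads, and 211 was the fewest behind any of the 10 genes in oil.

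Sequence upstream of 3 of these genes is shown because they span the pattern: Clec4f with the lowest fold change of the resident genes, Marco with the highest and Cd5l with the highest level after CCl4. Each run holds the 250 bases before the transcription start in RefSeq's GRCm38.p6, the assembly that mm10 names, 5′ to 3′ on the gene's own strand. Capitals mark matches, on either strand, to 4 short motifs or their reverse complements. GAGGAAG is bound by the ETS factors PU.1 and SpiC. TGGGAA is bound by RBPJ, the DNA-binding partner of Notch. TGCTGA is part of the site of MAF factors, and AGGTCA is part of the site of nuclear receptors. The Clec4f sequence is the minus strand of chr6:83656117-83656366, the Marco sequence the minus strand of chr1:120505025-120505274 and the Cd5l sequence the plus strand of chr3:87357631-87357880.
Clec4f: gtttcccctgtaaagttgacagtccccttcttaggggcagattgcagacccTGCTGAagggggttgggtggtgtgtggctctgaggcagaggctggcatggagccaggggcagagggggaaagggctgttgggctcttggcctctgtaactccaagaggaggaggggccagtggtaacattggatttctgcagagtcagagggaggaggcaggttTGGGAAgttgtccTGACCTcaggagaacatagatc
Marco: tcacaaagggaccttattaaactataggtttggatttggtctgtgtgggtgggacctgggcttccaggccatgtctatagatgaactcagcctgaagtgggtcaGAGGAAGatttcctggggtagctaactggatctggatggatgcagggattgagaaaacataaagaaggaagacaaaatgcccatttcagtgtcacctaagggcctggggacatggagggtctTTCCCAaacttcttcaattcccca
Cd5l: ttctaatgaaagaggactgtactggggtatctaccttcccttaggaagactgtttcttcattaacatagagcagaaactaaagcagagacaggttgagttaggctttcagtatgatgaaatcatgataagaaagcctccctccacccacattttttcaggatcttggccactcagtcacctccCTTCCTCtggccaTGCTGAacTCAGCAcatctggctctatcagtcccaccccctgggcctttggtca

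The GAGGAAG letters stood in the Marco sequence, with their first base at -146 from the start, and in the Cd5l sequence as CTTCCTC at -67. They were not found in the Clec4f window, which held TGCTGA at -199, TGGGAA at -35 and TGACCT at -22. Windows of 300 bases, 250 before and 50 after the start, were matched for 8 of the 10 genes, all but Adgre1 and Csf1r. GAGGAAG in either orientation was in 3 of these 8 genes, the third being Ly6c2, and in 13.6% of all 32851 mouse promoter windows. Ly6c2 was lower after CCl4, and the window of Spic, which was higher, did not hold these letters. TGGGAA was in 3 of the 8 genes and in 25.6% of all windows, TGCTGA in 5 and in 19.5%, and AGGTCA in 2 and in 16.3%, each on either strand. These are matches of letters, and no binding was measured here.

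The general macrophage genes were compared with the resident ones to ask whether both kinds moved alike. Adgre1 (NM_010130, chr17:57358581-57483529), which encodes an adhesion G-protein-coupled receptor used as a macrophage marker, was at 33.1 RPKM in oil and 78.8 RPKM after CCl4. Its log2 fold change was 1.25 (1.18 to 1.32). Csf1r (NM_001037859), the receptor for the macrophage growth factors CSF1 and IL-34, was at 75.5 RPKM in oil and 179 RPKM after CCl4, a log2 fold change of 1.24 (1.18 to 1.31). The ratio of Csf1r to Adgre1 RPKM was 2.28 in oil and 2.27 after CCl4. Relative to the median gene they were 0.94 and 0.95 higher in log2 and missed the rule of size.

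Set against these 2 genes, 5 of the 7 resident genes had a lower fold change and 2 a higher one. The ratio of Clec4f to Adgre1 RPKM was 8.55 in oil and 3.23 after CCl4, a log2 difference of -1.40 (-1.49 to -1.32). For Cd163 the ratio to Adgre1 was 1.03 and then 0.472, a difference of -1.13 (-1.25 to -1.01). Timd4 differed from Adgre1 by -0.87 (-0.98 to -0.75) and Vsig4 by -0.68 (-0.77 to -0.59). Cd5l nearly kept pace, with ratios of 8.40 and 7.55 and a difference of -0.15 (-0.24 to -0.07). The ratio of Marco to Adgre1 instead went from 1.28 to 3.53, a difference of 1.46 (1.33 to 1.60), and Spic differed by 0.24 (0.01 to 0.48). The size of the Spic margin depended on the pseudocount, since with 1 RPKM added to each value the log2 fold changes of Spic, Adgre1 and Csf1r all rounded to 1.23. The differences from Csf1r, whose fold change is nearly that of Adgre1, ran from -1.40 for Clec4f to 1.47 for Marco. The scaling of a library cancels in these ratios. The median log2 fold change was 0.57 over the 7 resident genes and 1.25 over Adgre1 and Csf1r, a gap of -0.68, beside a median of 0.33 over all 12012 genes.

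**Figure D2:**
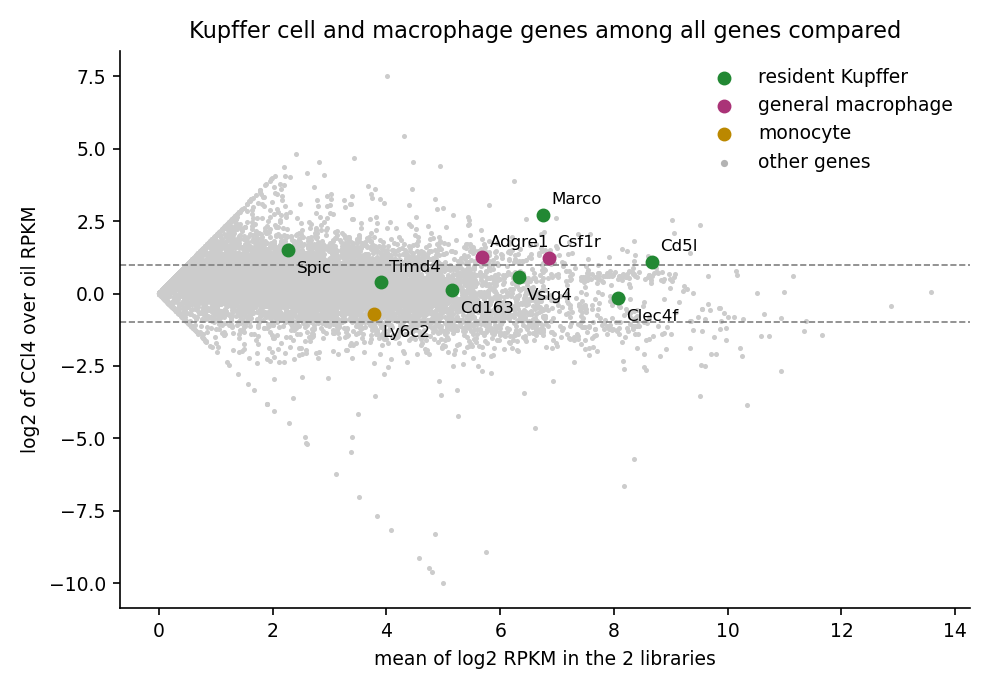
Log2 of CCl4 over oil RPKM (y axis) against the mean log2 RPKM of the 2 libraries (x axis) for the 12012 genes compared, with values under 1 RPKM set to 1 and dashed lines at a log2 fold change of 1 and -1. Marco, Spic, Cd5l, Adgre1 and Csf1r lie above the upper line, and Clec4f, Cd163, Timd4, Vsig4 and Ly6c2 lie between the lines.

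Each resident gene's share of the summed RPKM of the 7 genes in RNA of the whole preparation was also compared. The sum was 718 RPKM in oil and 1287 RPKM after CCl4, 1.79-fold higher. Clec4f held 39.4% of it in oil and 19.8% after CCl4. Cd5l held 38.7% and then 46.2%, and Marco 5.88% and then 21.6%. Vsig4 went from 9.14% to 7.58%, Cd163 from 4.74% to 2.89% and Timd4 from 1.82% to 1.32%, and Spic stayed under 1% with 0.401% and 0.631%. Without Marco and Cd5l, a choice made after their values were seen, the sum was 398 RPKM in oil and 414 RPKM after CCl4.

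**Figure D3:**
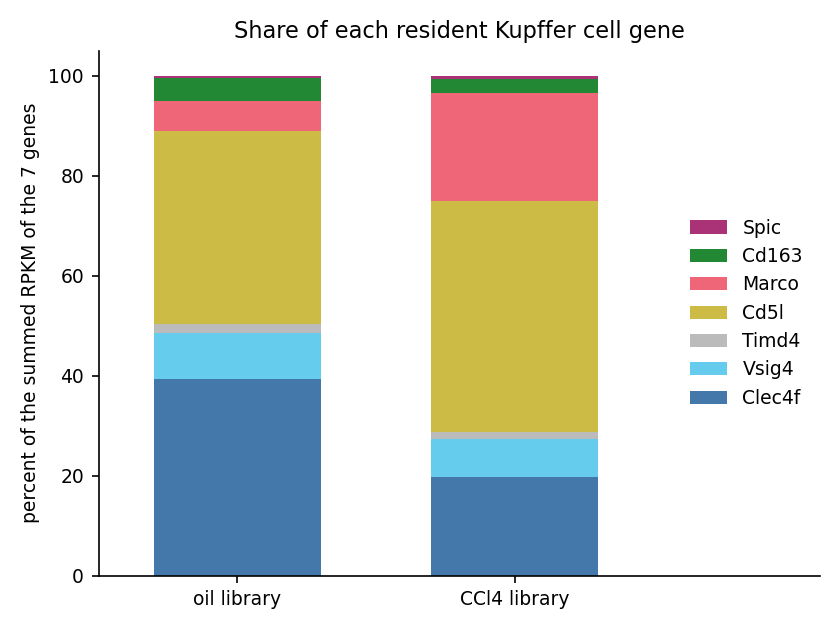
Stacked bars of the percentage of the summed RPKM of the 7 resident Kupffer cell genes that each gene held, 1 bar per library. The Clec4f segment goes from 39.4% in oil to 19.8% after CCl4 and the Marco segment from 5.88% to 21.6%.

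Ly6c2 encodes the Ly6C surface protein of inflammatory monocytes, which plasmacytoid dendritic cells and some T cells also carry. Its transcript (NM_001099217, chr15:75108161-75112066) was at 17.7 RPKM in oil and 10.8 RPKM after CCl4. The log2 fold change was -0.71 (-0.87 to -0.55), from at least 820 and 559 reads, and relative to the median gene it was -1.01, just past the rule of size. The ratio of Ly6c2 to Adgre1 RPKM was 0.534 in oil and 0.137 after CCl4. Reads can be split between Ly6c2 and its near-identical neighbour Ly6c1, so the level of either is uncertain, and Ly6c1 was at 2.30 RPKM in oil and 1.38 RPKM after CCl4, a log2 fold change of -0.73.

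The other monocyte genes had a median on the other side of 0 from Ly6c2. Of 15 listed, 13 could be compared, with 6 higher by the rule and 0 lower and a median log2 fold change of 0.84. Relative to the median gene 3 of the 13 were higher, Ace, Itgam and Fcgr1, and macrophages also make the last 2, which are in the list of uptake receptors too. This and the lists that follow stand beside 16.5% of all genes higher and 5.39% lower, or 9.39% higher and 9.4% lower relative to the median gene. Ace, 1 of the 6, was listed at 0 in oil and entered the comparison through the CCl4 library alone. Ccr2, the chemokine receptor that brings monocytes out of the bone marrow, was at 5.19 RPKM in oil and 10.9 RPKM after CCl4. Chil3, a secreted lectin-like protein of classical monocytes and neutrophils, was at 8.68 and 5.84 RPKM, a log2 fold change of -0.57. F13a1 and Ms4a4c, genes of classical monocytes, had log2 fold changes of -0.14 and -0.07. Plac8 was at 38.7 and 49.0 RPKM. Neutrophils share some of these genes, and their own list had a median of -0.81 over 9 genes, with 1 higher and 3 lower (5 lower relative to the median gene) and a summed level of 322 RPKM in oil and 224 RPKM after CCl4. Mpo, 1 of the 3 lower, was at 3.11 RPKM in oil and listed at 0 after CCl4, so it entered through the oil library alone and its fold change is a bound. The part of neutrophil RNA in the monocyte values was not tested.

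The list of 16 other Kupffer cell genes was also mixed, with 4 higher, 1 lower and a median log2 fold change of 0.72, where 16.5% of all genes were higher. Folr2, a folate receptor of resident macrophages, was at 55.1 RPKM in both libraries. Siglec1, the sialic acid receptor sialoadhesin, was at 25.3 RPKM in oil and 26.6 RPKM after CCl4, and Fcna, the lectin ficolin A, at 128 and 110 RPKM. The 4 higher genes were Slc40a1 (the iron exporter ferroportin, log2 fold change 1.37), Hmox1 (heme oxygenase 1, 1.35), Vcam1 (an adhesion molecule, 1.09) and Lyve1 (a hyaluronan receptor, 1.05). Relative to the median gene 2 of them, Slc40a1 and Hmox1, stayed past the rule and Vcam1 and Lyve1, which sinusoidal endothelium also makes, did not. The 1 lower gene was C6, a complement component that hepatocytes also make, at 54.7 RPKM and then 25.2 RPKM.

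A list of further general macrophage genes was mostly higher. Of 17 listed, 16 could be compared, and 12 were higher (10 relative to the median gene), 0 were lower and the median log2 fold change was 1.47. Lyz2, the lysozyme of macrophages and neutrophils, was at 321 RPKM in oil and 1645 RPKM after CCl4. Ctss, a lysosomal protease, was at 93.5 and 389 RPKM, and Tyrobp, a signalling adaptor of myeloid receptors, at 80.5 and 274 RPKM. Ptprc, the leukocyte antigen CD45, had a log2 fold change of 0.83 and reached 23.0 RPKM after CCl4. All 16 of these genes had a higher log2 fold change than Clec4f, Cd163 and Timd4, and 15 of them than Vsig4. Of the 16, 11 were above Cd5l, 6 above Spic and 1, Cx3cr1, above Marco. Cx3cr1 lay barely above the cutoff of 1 RPKM in oil, so the size of its fold change is uncertain. Its place above Marco was not tested with a pseudocount.

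Of 13 transcription factors of Kupffer cells, 6 were higher by the rule and 0 lower, with a median log2 fold change of 0.92. Relative to the median gene 3 were higher and the median was 0.62. Runx1, 1 of the 6, was listed at 0 in oil. Nr1h3, which encodes LXR-alpha and is needed for Kupffer cell identity, was at 54.9 RPKM in oil and 54.8 RPKM after CCl4, and hepatocytes also make it. Id3, another factor needed for Kupffer cells, was at 71.6 and 221 RPKM. Spi1, which encodes PU.1, was at 21.0 and 58.8 RPKM, and Zeb2 at 4.35 and 16.6 RPKM. Rbpj, the nuclear effector of Notch, had a log2 fold change of 0.89.

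The uptake functions that Marco, Vsig4 and Cd163 stand for were each read through their related genes. Of 17 scavenger and uptake receptors compared, 8 were higher (6 relative to the median gene), 0 were lower and the median log2 fold change was 0.92. Msr1, another class A scavenger receptor of macrophages, was at 25.4 RPKM in oil and 47.4 RPKM after CCl4, a log2 fold change of 0.90 beside 2.72 for Marco. Of 6 genes for complement C1q and C3 receptors, 5 were higher (4 relative to the median gene), with a median of 1.32. C1qa, C1qb and C1qc, the chains of C1q, which macrophages make, had log2 fold changes of 1.14, 1.33 and 1.31, whereas Vsig4, which binds C3 fragments, had 0.57. Of 11 genes of heme and iron handling, 5 were higher, 1 was lower and the median was 0.80, beside 0.13 for the haemoglobin receptor Cd163. Relative to the median gene 2 were higher, Hmox1 and Slc40a1, which are also in the list of other Kupffer cell genes. The lower one was Hrg, a heme-binding plasma protein of hepatocytes, at 105 RPKM in oil and 45.7 RPKM after CCl4.

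**Figure D4:**
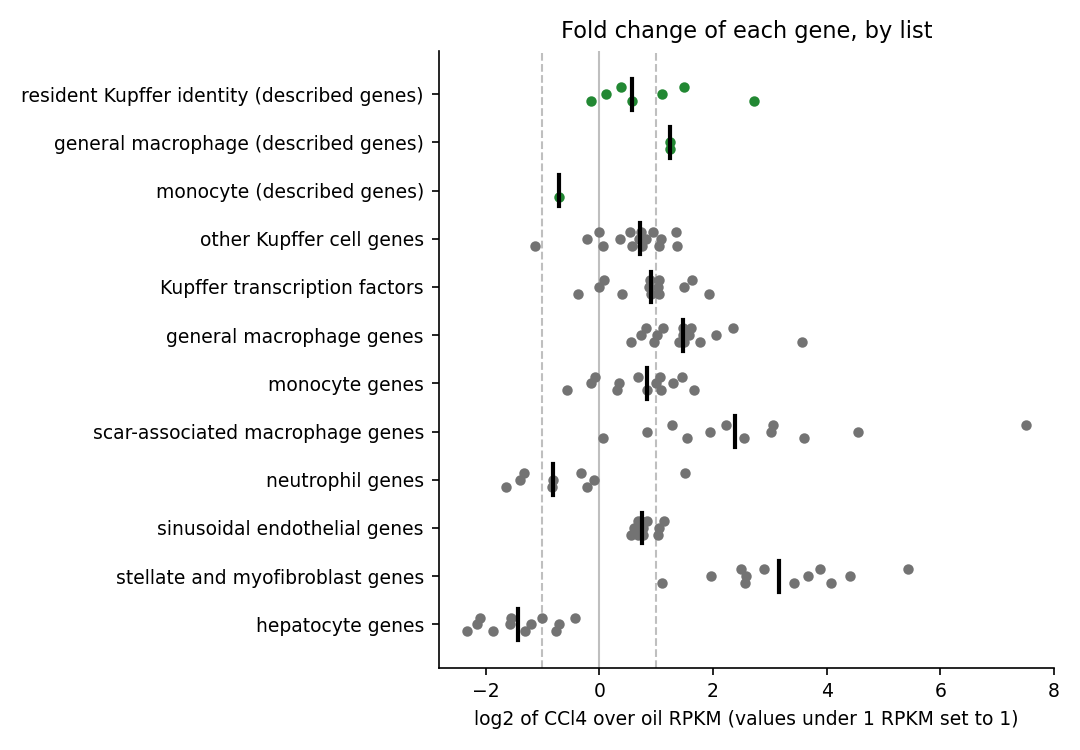
Log2 of CCl4 over oil RPKM of each gene (points), grouped by list, with values under 1 RPKM set to 1, black bars at list medians and dashed lines at 1 and -1. The 7 resident genes spread from -0.15 to 2.72, with a median of 0.57, while the general macrophage list has its median at 1.47 and the hepatocyte list at -1.43.

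Gene lists of other cell types in the preparations also differed between the libraries, and not all in the same direction. The labelled cell type was present, with albumin (Alb) at 8656 RPKM in oil and 6476 RPKM after CCl4, and none of the 12 hepatocyte genes was listed at 0. Of these 12, 8 were lower (11 relative to the median gene) and 0 higher, with a summed level of 21120 RPKM in oil and 11126 RPKM after CCl4. All 12 stellate and myofibroblast genes were higher (11 relative to the median gene), with a sum of 82.4 and then 918 RPKM, and 2 of them, Pdgfrb and Lox, were listed at 0 in oil. The 12 sinusoidal endothelial genes had a median log2 fold change of 0.75, with 3 higher beside 16.5% of all genes, 0 higher relative to the median gene, 0 lower, none at 0, and a sum of 646 and then 1114 RPKM. The 12 genes of scar-associated macrophages, a state described in fibrotic liver, had 10 higher (9 relative to the median gene) and a median of 2.39, led by Gpnmb at 1.19 and then 217 RPKM and Trem2 at 4.58 and then 107 RPKM. The part of these shifts in the levels of the 10 genes was not tested.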

How the data were processed

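RNA-seq of 2 libraries of mouse primary hepatocytes was analysed, 1 from oil-treated and 1 from CCl4-treated mice. The submitters' processing notes name CASAVA 1.4, TopHat2 and mm10, and the deposited mRNA values are RPKM made by the authors per RefSeq transcript. Every value under 1 RPKM was listed as 0. The authors also deposited raw counts and RPKM for new lncRNAs, used here only to check depth and the cutoff at 1. The authors' own columns of log2 fold changes, p-values and q-values for this comparison were not used.

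Of 27457 mRNA transcripts 27049 matched a symbol, and a gene was read as its transcript with the highest mean RPKM. The fold change was log2 of the RPKM ratio with values under 1 set to 1, and a call was a log2 fold change of at least 1 in size. It was compared with pseudocounts of 0.1 and 1, a stricter fold, scaling to the median gene and scaling without the 10 most abundant mRNAs. Reads were recovered from the steps of the RPKM values of short genes (95.5% and 95.4% whole), and are lower bounds. Of 1397 new lncRNAs checked, 78.2% of recovered reads equalled the deposited count and none exceeded it. Intervals of 95% for a fold change are exact Clopper-Pearson intervals on these reads, those for a difference from Adgre1 or Csf1r use a normal approximation on the log scale, and both cover counting error only. Scripts were tested on simulated data and run in Python 3.11.15 with numpy 2.4.6, scipy 1.17.1, pandas 2.3.3 and matplotlib 3.10.9.

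Genes named in the text are the 10 described and members of the gene lists. These genes and lists were chosen with earlier results of these data known. With 1 library per group no test between conditions was run.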

Additional observations from a re-analysis of the deposited data

How the results depend on the processing

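No paired analysis was possible because each condition has 1 library. The gap between resident and general macrophage genes (-0.68 in log2) stayed within its counting error under both pseudocounts, as did the medians. Both scalings shift all genes alike, so they could not move this gap and are no check of it. Scaling to the median gene gave median log2 fold changes of 0.27 for the 7 resident genes, 0.95 for Adgre1 and Csf1r, 0.41 for the other Kupffer cell genes, 1.17 for the general macrophage genes and 0.53 for the monocyte genes. It called 1128 genes higher and 1129 lower, against 1984 and 647 without it. Scaling without the 10 most abundant mRNAs gave 0.78, 1.45, 0.92, 1.67 and 1.04 for the same 5 medians. It moved the counts the other way, to 2810 genes higher and 437 lower. A log2 fold change of at least 2 left 292 genes higher and 100 lower. Among the 10 genes, a pseudocount of 1 RPKM lowered Spic to 1.23, where Adgre1 and Csf1r also rounded to 1.23. No called gene of the 10 changed direction, while the uncalled Clec4f and Cd163 did under 1 scaling each. Depth limits little here, since the fewest reads behind a value were 211 for Spic in oil. The spread between mice was not measured, and no alternative stands in for it.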

Other observations

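Of 14 genes for ligands and receptors that maintain Kupffer cells, 8 were higher after CCl4 and 0 were lower, with a median log2 fold change of 1.09, and 6 were higher relative to the median gene. These counts and those below stand beside 16.5% of all genes higher and 5.39% lower, or 9.39% higher and 9.4% lower relative to the median gene. Gdf2, which encodes BMP9 and is made by stellate cells, was at 4.78 RPKM in oil and 46.0 RPKM after CCl4. Bmp10, its close relative, was listed at 0 in oil and at 6.37 RPKM after CCl4, and Il34, a second ligand of the Csf1r receptor, was listed at 0 and then at 5.54 RPKM. Csf1, the main ligand, was at 5.58 and 9.81 RPKM, and Tgfb1, the cytokine TGF-beta 1, at 6.75 and 20.2 RPKM.

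Gene families of the described members did not move alike. Of the Clec4 lectin and scavenger receptor cysteine-rich families, 15 genes could be compared. Of these 15, 8 were higher (6 relative to the median gene) and 1 was lower, with a median of 1.10. This list includes Clec4f, Cd5l, Marco and Cd163 themselves. Cd5l and Marco are among the 8 higher ones, and the median is the value of Cd5l. Clec4b1, also among the higher ones, was listed at 0 in oil. Clec4n, which encodes dectin-2, was at 6.08 and 18.0 RPKM, and Clec4a2 had a log2 fold change of 2.01, beside -0.15 for Clec4f. Clec4g, a lectin of sinusoidal endothelium, was at 238 and 380 RPKM. Dmbt1, a secreted member of the cysteine-rich family, was the lower one, at 52.0 and 23.0 RPKM. Of 7 Ly6 family genes compared, 2 were higher (1 relative to the median gene) and 0 lower (2, Ly6c1 and Ly6c2, relative to the median gene), with a median of 0.55. Lynx1, 1 of the 2 higher, was listed at 0 in oil, and Ly6c1 and Ly6c2 were the only ones of the 7 with a log2 fold change below 0, joined by Ly6a at -0.08 when scaled to the median gene.

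Cell cycle genes were higher for 8 of 9 compared, also relative to the median gene, with a median log2 fold change of 2.27, and 1 of the 8, Ccnb1, was listed at 0 in oil. Mki67, the proliferation marker Ki-67, was at 2.65 and 9.62 RPKM, and these bulk values do not say which cells divided. The dendritic cell list had 4 of 9 genes higher, 1 relative to the median gene, and a median of 0.86. Of the 9, 3 were listed at 0 in oil and entered only through the CCl4 library, among them the higher genes Cd209a and Ccr7. Cd74, the invariant chain of MHC class II, which macrophages also make, was at 123 and 283 RPKM. The T, B and NK cell list had 3 of 11 higher under both scalings, beside 16.5% and 9.39% of all genes, and a median of 0.05. The cholangiocyte list had 2 of 4 higher and a median of 0.84, and the 1 higher relative to the median gene was Spp1, which is also in the scar-associated macrophage list.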
